A study of Mus musculus with 6 samples.

Results

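The genes described here are splicing factors whose symbols begin with Srsf, Hnrnp, Sf3a, Sf3b, Snrp, Prpf or U2af. For each gene the brightest probe set over the 6 arrays was taken, among those that carry a single gene symbol. The rule found 62 of the 18193 genes on the array, namely 10 Srsf, 19 Hnrnp, 3 Sf3a, 6 Sf3b, 9 Snrp, 12 Prpf and 3 U2af genes. All samples were cytotoxic T cells from spleens of mice of strain C57Bl/6 that carry the P14 T cell receptor, stimulated for 24 h with gp33, the peptide this receptor recognises. The cultures were then infected with a retrovirus that encodes a phosphorylation-deficient mutant of HDAC7, a class IIa histone deacetylase, joined to GFP. Cells sorted as GFP positive (3 samples) carry the mutant, and cells sorted as GFP negative (3 samples) are the control of the labels. GFP negative cells passed through the same infected cultures, and no empty vector control was analysed here. The labels name biological replicates but no animals, so the p-values reflect the spread among these samples alone, which may be technical. The comparison asks which splicing factor transcripts differ in cells that carry the mutant.

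Splicing removes introns from nascent transcripts in particles built from small nuclear RNA and protein. U1 binds the 5′ splice site, the U2AF proteins bind the 3′ splice site, and U2, with its SF3A and SF3B parts, binds the branch point. The U4/U6.U5 tri-snRNP and the PRP19 complex then form the catalytic spliceosome. SR proteins mostly promote the use of an exon when they bind in it, and hnRNP proteins coat nascent RNA and often repress splice sites. In T cells, activation changes the splicing of many genes, and the best known case is Ptprc, which encodes CD45.

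The label of the sorted cells was checked first on Hdac7. A probe set for it had log2 signals of 8.09, 8.19 and 8.17 in GFP positive samples, against 4.86, 4.83 and 4.81 in GFP negative samples. Another probe set of the gene had 6.17, 6.19 and 6.21 in GFP positive samples and 6.65, 6.76 and 6.81 in GFP negative samples. The sources used here do not say which part of the gene is in the construct. All 8 markers on the CD8 T cell list were measured, of which 6 passed the test as higher and Gzmb as lower. Of the lists for other cells, CD4 T cell markers had summed signals (as log2) of 3.51 to 3.57 in GFP positive samples and 3.61 to 3.72 in GFP negative samples. Those of B cells were 4.707 to 5.002 in GFP positive samples and 4.812 to 5.101 in GFP negative samples. Those of macrophages were 4.31 to 4.43 in GFP positive samples and 4.10 to 4.33 in GFP negative samples, and those of dendritic cells were 3.55 to 3.85 and 4.01 to 4.03. Of single markers on these lists, Cd68 of macrophages was called higher (difference 1.11). Flt3 and Zbtb46 of dendritic cells were called lower (both -0.47), and the others tested did not pass. Csf1r of macrophages (difference -0.32) passed as lower only with the replicate number as a block (limma adjusted p = 0.0239). Cd68, Flt3, Zbtb46 and Csf1r were dim, with mean log2 signals over the 6 arrays of 2.31, 2.31, 2.25 and 2.82. Markers of NK cells, neutrophils and erythroid cells lay below the filter level of 1.27. In the root mean square deviation of an array's control probe sets from their medians over the arrays, GFP positive 3 (0.280) and GFP negative 1 (0.295) stood apart from the other arrays (0.139 to 0.189). Results without these 2 arrays are therefore given where they change. The part of these differences in the results below was not tested.

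Splicing factor transcripts moved in both directions, and by small amounts. Of the 61 genes above the filter, 9 were higher in GFP positive cells, 12 were lower and 40 did not pass the test (limma, adjusted p under 0.05 over all genes tested). The genes called thus made up 34.4% of those tested, while the background over all 13194 genes was 42.1%, with 24.6% higher and 17.5% lower. In this fit the share of splicing factors called was therefore no larger than that of the array as a whole. Under some of the alternatives given below it was larger. Differences ran from -0.67 to 0.67 on the log2 scale around a median of -0.11, against a median of -0.02 over all genes tested. Their SD was 0.27, against 0.51 over all genes, and 2 genes (3.28%) reached a 1.5-fold difference, against 17.6% of all genes. The splicing factors were bright, with a median level of 8.72, against 4.67 for all genes tested, and 42 of the 61 were in the top 10% of level. The part of signal level in the size of the differences was not tested. None of the 61 reached a 2-fold difference, whereas 706 of all genes tested did. The called genes differed by 1.17-fold to 1.60-fold, with a median of 1.28-fold. For the 40 genes that did not pass, the 95% confidence intervals lay between -0.49 and 0.47. Samples of the groups did not overlap for 39 of the 61 genes, 14 higher and 25 lower, where 53.8% of all genes tested did not overlap, 29.7% higher and 24.2% lower. The remaining gene, Srsf12, lay below the filter, with 0.85, 0.69 and 0.70 in GFP positive samples and 0.30, 0.49 and 0.63 in GFP negative samples, and was not tested. These are bulk samples, so fewer cells of a type and less RNA per cell cannot be told apart.

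The count of lower genes changed when an array was left out. It was 12 with 6 arrays, 5 without GFP positive 2, 6 without GFP positive 3, 5 without GFP negative 1, 4 without GFP negative 2 and 5 without GFP negative 3, while the calls over all genes went to between 32.7% and 34.7% in those fits. Without both GFP positive 3 and GFP negative 1, 3 genes were higher (Hnrnpll, Hnrnpul1 and Prpf4b) and 4 lower (Prpf19, Snrpa1, Snrpd3 and Snrpf), with 25.2% of all genes called, so that each other call among the 21 was lost in that fit. The 6 genes called under each of 15 alternatives were Hnrnpll, Hnrnpul1, Prpf19, Snrpa1, Snrpd3 and Snrpf.

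**Figure D1:**
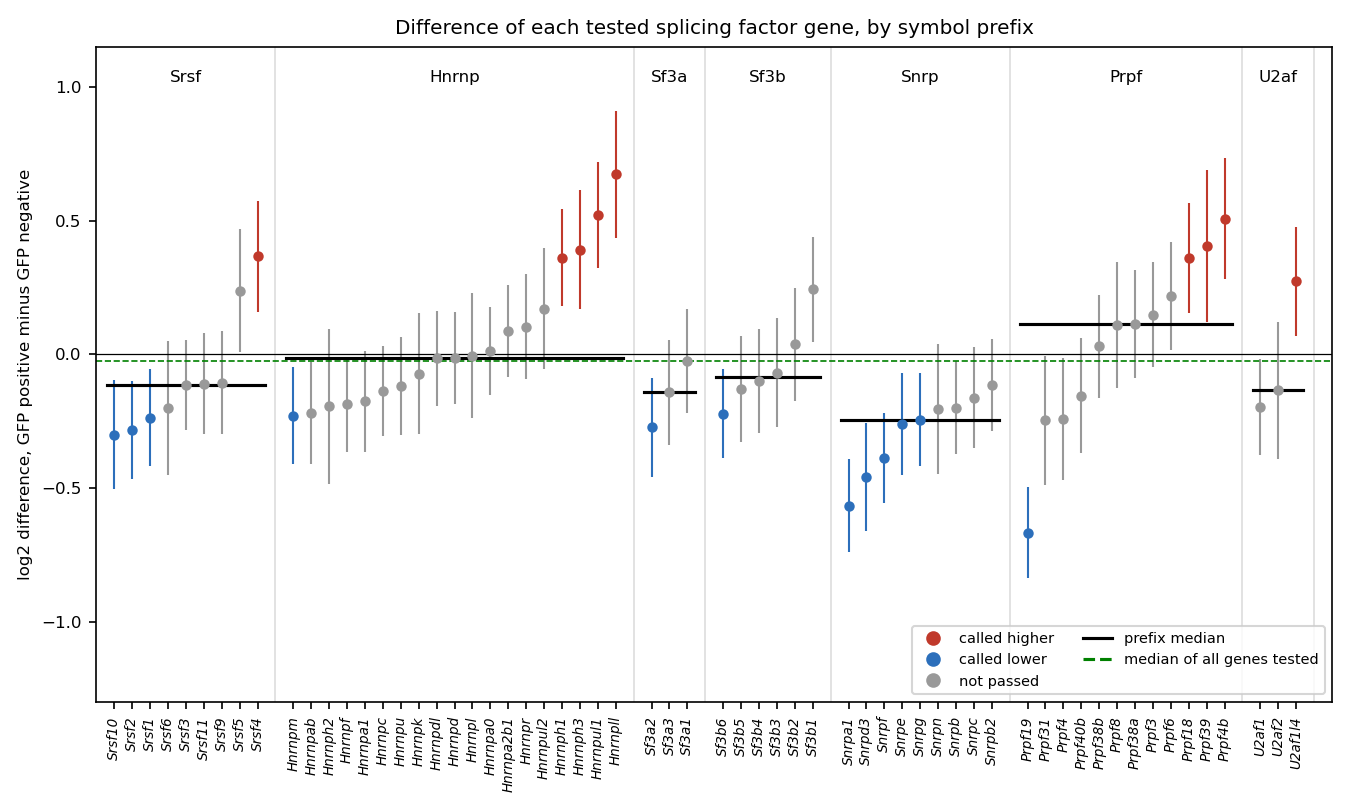
Log2 difference between GFP positive and GFP negative cells (vertical axis) for each of the 61 tested splicing factor genes, grouped by symbol prefix, with 95% confidence intervals as bars. Red points passed the limma test as higher, blue points as lower and grey points did not pass. Black bars are prefix medians and the dashed line is the median of all genes tested, and all 9 Snrp genes lie below 0.

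The Snrp genes encode proteins of the snRNP particles. Of 9 tested, 5 were lower in GFP positive cells, 4 did not pass and none was higher, a share called of 55.6%, against 42.1% of all genes (17.5% lower). The estimates of all 9 were negative, from -0.57 to -0.11 with a median of -0.24. Relative to the median of all genes tested, the Snrp median was -0.22. Samples of the groups did not overlap for 8 of the 9, the exception being Snrpn, where 53.8% of all genes did not overlap (24.2% lower). Without GFP positive 2, GFP positive 3, or any single GFP negative sample, 3 of the 5 calls remained, those of Snrpa1, Snrpd3 and Snrpf, and the same count was reached without GFP positive 3 and GFP negative 1 together.

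Snrpa1, which encodes a U2-specific protein, had log2 signals of 8.77, 8.78 and 8.69 in GFP positive samples, against 9.27, 9.35 and 9.31 in GFP negative samples. Every GFP positive sample lay below every GFP negative sample by more than the spread within either group. The difference was -0.57 ± 0.08 (SE, limma adjusted p = 0.000755), or 1.48-fold lower. Snrpd3 and Snrpf encode proteins of the Sm ring, the core of 7 proteins that is placed on the small nuclear RNA of the U1, U2, U4 and U5 particles. Snrpd3 had 10.01, 10.14 and 10.05 in GFP positive samples, against 10.64, 10.45 and 10.48 in GFP negative samples, with no overlap. It fell by 0.46 ± 0.09 (SE, limma adjusted p = 0.00403), or 1.37-fold. Snrpf had 9.20, 9.24 and 9.19 in GFP positive samples, against 9.60, 9.64 and 9.56 in GFP negative samples, again with no overlap. It was 1.31-fold lower (difference -0.39 ± 0.07 SE, limma adjusted p = 0.00372).

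Other members of the Sm ring were lower by less. Snrpg averaged 10.81 ± 0.06 in GFP positive cells and 11.05 ± 0.02 in GFP negative cells (SD, n = 3 each), a difference of -0.24 (limma adjusted p = 0.0323). Snrpe averaged 10.84 ± 0.10 in GFP positive cells and 11.10 ± 0.02 in GFP negative cells, a difference of -0.26 (limma adjusted p = 0.0363). Snrpb, with a difference of -0.20, did not pass (limma adjusted p = 0.0655), although its groups did not overlap. Of Snrpd3, Snrpf, Snrpg, Snrpe and Snrpb, 4 were therefore called lower, where 17.5% of all genes were lower. Their differences ran from -0.46 to -0.20 over all 5. Both Snrpg and Snrpe lost their calls in those fits where the count was 3, with Snrpg differences of -0.26 to -0.22 there. Snrpc, a U1-specific protein (difference -0.16), and Snrpb2, a U2-specific protein (-0.11), did not pass. Snrpn, known for its expression in brain, had a signal near the filter level, 1.60 ± 0.17 in GFP positive cells and 1.81 ± 0.10 in GFP negative cells, and did not pass.

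The stretch before the transcript start is shown for genes called under all 15 alternatives that had an entry in the promoter table, namely Snrpa1, Snrpd3, Snrpf and Prpf19, which were lower, and Hnrnpul1, which was higher. Sequences are the 250 bases upstream of the start in RefSeq on build GRCm38.p6, 5′ to 3′ on the gene's strand. Capitals mark matches to CCAAT or its complement ATTGG and to CCGGAAG, and CACGTG was also searched for. The windows are at chr7:66060086-66060335 on the plus strand (Snrpa1), chr10:75517792-75518041 on the plus strand (Snrpd3), chr10:93589659-93589908 on the minus strand (Snrpf), chr19:10894981-10895230 on the plus strand (Prpf19) and chr7:25754760-25755009 on the minus strand (Hnrnpul1).
Snrpa1: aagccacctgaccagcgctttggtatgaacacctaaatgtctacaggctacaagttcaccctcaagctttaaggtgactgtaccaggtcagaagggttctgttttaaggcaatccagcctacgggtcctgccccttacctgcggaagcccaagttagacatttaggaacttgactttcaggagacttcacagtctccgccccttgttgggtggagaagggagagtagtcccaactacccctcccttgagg
Snrpd3: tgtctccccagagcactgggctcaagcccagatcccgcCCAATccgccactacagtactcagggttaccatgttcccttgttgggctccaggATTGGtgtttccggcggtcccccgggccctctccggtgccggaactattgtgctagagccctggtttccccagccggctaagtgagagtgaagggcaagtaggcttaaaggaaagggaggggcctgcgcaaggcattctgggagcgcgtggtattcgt
Snrpf: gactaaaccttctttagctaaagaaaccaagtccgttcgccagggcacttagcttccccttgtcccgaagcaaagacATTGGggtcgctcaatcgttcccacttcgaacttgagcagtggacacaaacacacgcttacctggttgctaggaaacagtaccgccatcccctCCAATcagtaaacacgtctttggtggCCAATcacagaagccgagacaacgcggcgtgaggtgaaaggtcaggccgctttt
Prpf19: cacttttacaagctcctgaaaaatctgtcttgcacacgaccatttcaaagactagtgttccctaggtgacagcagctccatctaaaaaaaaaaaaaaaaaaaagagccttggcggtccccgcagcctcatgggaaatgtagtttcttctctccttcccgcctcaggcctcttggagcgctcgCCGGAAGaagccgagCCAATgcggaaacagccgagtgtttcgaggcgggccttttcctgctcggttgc
Hnrnpul1: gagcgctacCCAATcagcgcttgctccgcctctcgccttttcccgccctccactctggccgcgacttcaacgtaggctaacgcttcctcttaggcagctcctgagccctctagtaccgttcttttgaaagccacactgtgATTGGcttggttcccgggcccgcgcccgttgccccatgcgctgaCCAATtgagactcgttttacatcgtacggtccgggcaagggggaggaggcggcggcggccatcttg
The Snrpa1 window held none of these motifs. The Snrpd3 window held CCAAT or its complement 212 and 158 bases before the start, and the Snrpf window held it 173, 80 and 54 bases before the start. In the Prpf19 window shown, CCGGAAG began 68 bases and CCAAT 53 bases before the start. The window of another Prpf19 start in the table held CCAAT 168 bases before it and no CCGGAAG. Hnrnpul1, which was higher, held CCAAT or its complement 241, 110 and 66 bases before the start, so that a CCAAT match was shared by genes of both directions. Of the 62 genes, 55 matched an entry in the promoter table, with 75 windows between them. On both strands, CCGGAAG, the core of many ETS factor sites, was found in 28% of these windows and in 6.91% of 32851 windows of all genes. CCAAT was found in 48% of the windows and in 33.8% of all, and CACGTG, an E-box, in 6.67% and 6.02%. Among 11 Snrp windows, 3 held CCGGAAG, 4 held CCAAT and 0 held CACGTG. The motifs were chosen after the values were seen, they do not overlap each other, and a match is a description of letters only.

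**Figure D2:**
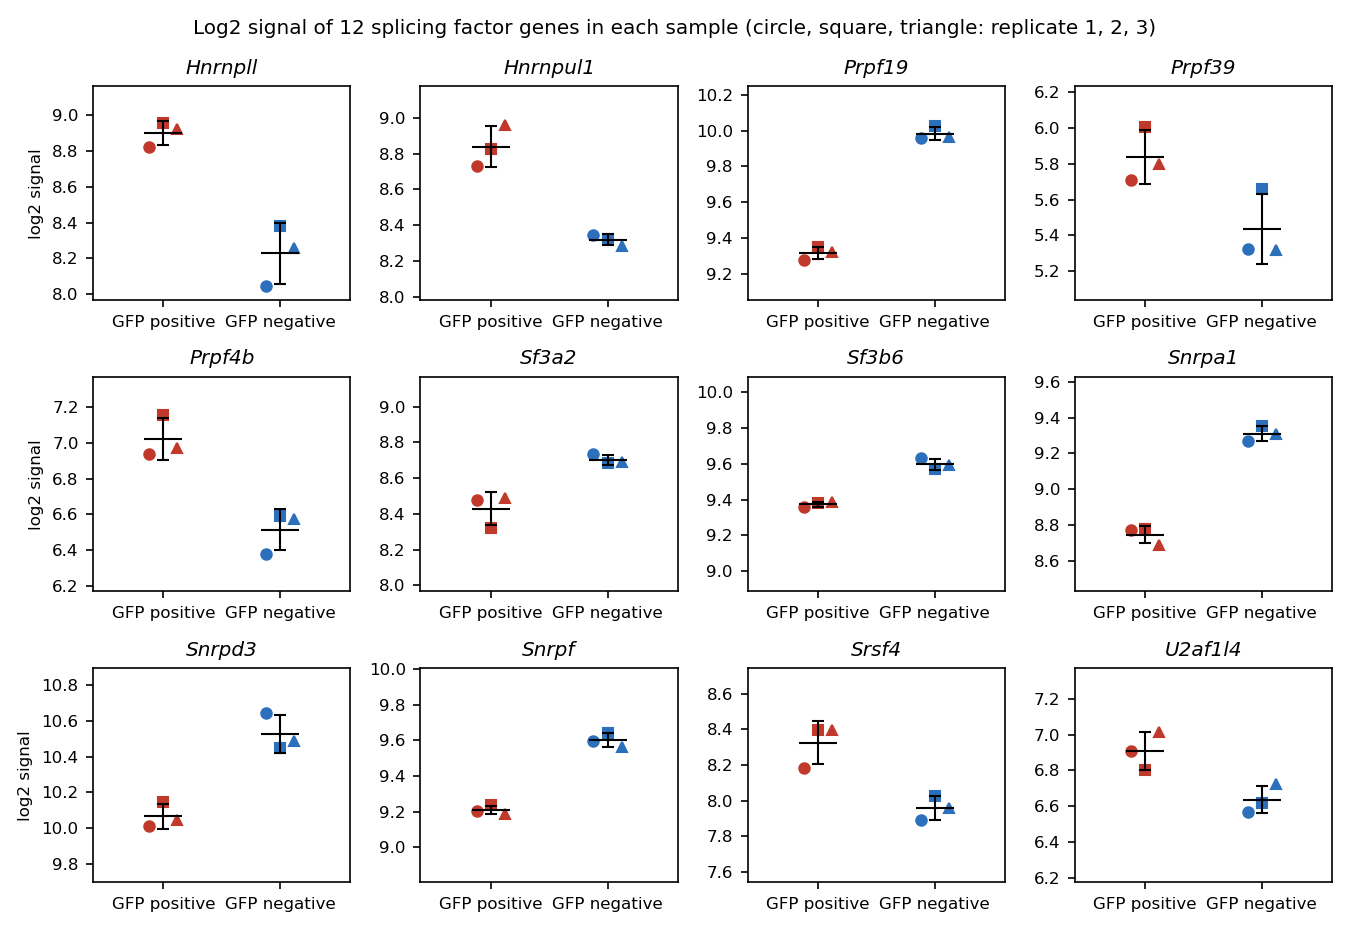
Log2 signal (vertical axes, each with its own range) of 12 splicing factor genes in the 3 GFP positive samples (left, red) and the 3 GFP negative samples (right, blue), with the mean and SD as bars. Circles, squares and triangles are replicates 1, 2 and 3. In each panel the samples of the groups do not overlap, and Prpf19, Snrpa1, Snrpd3, Snrpf, Sf3a2 and Sf3b6 are lower in GFP positive cells.

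The SF3A and SF3B proteins are parts of the U2 particle that hold it on the branch point, and few of their genes passed the test. In GFP positive cells, 1 of 3 Sf3a genes (33.3%) and 1 of 6 Sf3b genes (16.7%) were lower, against 17.5% of all genes. None was higher, against 24.6% of all genes. Sf3a2 had log2 signals of 8.48, 8.32 and 8.49 in GFP positive samples, against 8.73, 8.68 and 8.69 in GFP negative samples. The groups did not overlap, and the gene was 1.21-fold lower (difference -0.27 ± 0.08 SE, limma adjusted p = 0.0275). Sf3a3 (difference -0.14) and Sf3a1 (-0.03) did not pass. Sf3b6, whose protein contacts the branch point, had 9.36, 9.38 and 9.39 in GFP positive samples, against 9.63, 9.57 and 9.59 in GFP negative samples. Its difference of -0.22 ± 0.07 (SE, limma adjusted p = 0.0385) was the smallest of the called genes, and it was no longer called with the replicate number as a block (limma adjusted p = 0.0525). Sf3b1, the large subunit that is often mutated in human leukaemia, pointed the other way. It averaged 9.63 ± 0.10 in GFP positive cells and 9.39 ± 0.05 in GFP negative cells (SD, n = 3 each), without overlap, but missed the threshold (difference 0.24, limma adjusted p = 0.0502). The other Sf3b genes had differences from -0.13 (Sf3b5) to 0.04 (Sf3b2). Sf3a2 was not called without GFP positive 2 or any single GFP negative sample (differences -0.28 to -0.22), and Sf3b6 was not called without any single array (-0.24 to -0.21).

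Of the U2AF genes, which act at the 3′ splice site, 1 of 3 passed the test (33.3%, against 42.1% of all genes). U2af1l4, a relative of U2af1, had 6.91, 6.80 and 7.02 in GFP positive samples, against 6.57, 6.62 and 6.72 in GFP negative samples. Its samples did not overlap, and it was 1.21-fold higher (difference 0.27 ± 0.09 SE, limma adjusted p = 0.0391). U2af1, the small subunit, averaged 9.90 ± 0.08 in GFP positive cells and 10.09 ± 0.02 in GFP negative cells, and missed the threshold (difference -0.20, limma adjusted p = 0.0758). U2af2, the large subunit, had a difference of -0.14 (95% interval -0.39 to 0.12). The call of U2af1l4 was lost without any single array other than GFP positive 2 (differences 0.22 to 0.32), after either scaling between arrays, and without the filter.

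The Prpf genes held the clearest fall, and 3 of the 9 rises, a share of 25% higher that was near the 24.6% of all genes. Of 12 tested, 3 were higher, 1 was lower and 8 did not pass, and their median was 0.11. The share called was 33.3%, against 42.1% of all genes. Prpf19 encodes the ubiquitin ligase at the core of the PRP19 complex. It had log2 signals of 9.28, 9.35 and 9.32 in GFP positive samples, against 9.96, 10.03 and 9.96 in GFP negative samples. The gap between the groups was many times the spread within them, and the gene was 1.59-fold lower (difference -0.67 ± 0.07 SE, limma adjusted p = 0.000324).

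The 3 Prpf genes that were higher encode a kinase and factors of early and late steps. Prpf4b, the kinase, had 6.94, 7.16 and 6.97 in GFP positive samples, against 6.38, 6.59 and 6.57 in GFP negative samples. It was 1.42-fold higher without overlap (difference 0.51 ± 0.10 SE, limma adjusted p = 0.00422). Prpf39, a U1-associated protein, had 5.71, 6.01 and 5.80 in GFP positive samples, against 5.32, 5.66 and 5.32 in GFP negative samples, so that GFP negative 2 lay just under GFP positive 1. It was 1.32-fold higher (difference 0.41 ± 0.12 SE, limma adjusted p = 0.0306). Prpf18, which acts in the second catalytic step, averaged 5.87 ± 0.08 in GFP positive cells and 5.51 ± 0.10 in GFP negative cells (SD, n = 3 each), 1.28-fold higher (limma adjusted p = 0.0134). Prpf39 was not called without GFP positive 2, GFP positive 3, GFP negative 1 or GFP negative 3 (differences 0.32 to 0.43), and Prpf18 was not called without GFP negative 3 (0.32). Prpf39 was not called after either scaling between arrays, nor Prpf18 after quantile normalization. Neither Prpf4b nor Prpf39 passed as the mean of its probe sets.

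Other Prpf genes encode proteins of the tri-snRNP. Prpf6 (difference 0.22) and Prpf3 (0.15) had positive estimates, Prpf4 (-0.24) and Prpf31 (-0.25) negative ones, and none passed. The groups did not overlap for any of the 4, which also held for 8 of the 12 Prpf genes and 53.8% of all genes tested. Prpf31 did pass with the replicate number as a block (limma adjusted p = 0.0417). Prpf8, the protein at the centre of the catalytic particle, averaged 8.57 ± 0.09 in GFP positive cells and 8.46 ± 0.16 in GFP negative cells, and did not pass (difference 0.11, 95% interval -0.13 to 0.35). Prpf38a (0.11), Prpf38b (0.03) and the dim Prpf40b (-0.15) did not pass either.

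Of the 9 SR protein genes tested, 1 was higher in GFP positive cells, 3 were lower and 5 did not pass. The share called was 44.4%, against 42.1% of all genes (24.6% higher and 17.5% lower), and the median was -0.11. Srsf4 was the one that was higher, with 8.19, 8.40 and 8.39 in GFP positive samples, against 7.89, 8.03 and 7.96 in GFP negative samples. The groups did not overlap, and the difference was 0.37 ± 0.09 (SE, limma adjusted p = 0.0133), or 1.29-fold. Srsf2 averaged 9.80 ± 0.07 in GFP positive cells and 10.09 ± 0.06 in GFP negative cells (difference -0.28, limma adjusted p = 0.0219). Srsf10, an SR protein known as a repressor of splicing when it loses its phosphates, averaged 7.71 ± 0.11 in GFP positive cells and 8.02 ± 0.06 in GFP negative cells (difference -0.30, limma adjusted p = 0.0266). Srsf1, the founding member of the family, averaged 10.27 ± 0.07 in GFP positive cells and 10.51 ± 0.06 in GFP negative cells (difference -0.24, limma adjusted p = 0.0434, and 0.0557 with the replicate block). Srsf5, with a difference of 0.24, did not pass (limma adjusted p = 0.0907), nor did Srsf6 at -0.20 (0.17) or Srsf3, Srsf11 and Srsf9, each at -0.11. Srsf2 was not called without GFP positive 2, GFP negative 2 or GFP negative 3 (differences -0.29 to -0.25). Srsf10 was not called without GFP positive 3 or any single GFP negative sample (-0.32 to -0.24), nor Srsf1 without any single array but GFP positive 1 (-0.26 to -0.20), so that 0 Srsf genes were lower without GFP negative 2 or without GFP negative 3.

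The Hnrnp genes included 4 of the 9 genes that were higher, but their share higher, 21.1%, was below the 24.6% of all genes. Of 19 tested, 4 were higher, 1 was lower and 14 did not pass, with a median of -0.01. The share called was 26.3%, against 42.1% of all genes. Hnrnpll, which in activated T cells is known to repress the variable exons of Ptprc, had the largest rise of the 61 genes. Its log2 signals were 8.82, 8.96 and 8.92 in GFP positive samples, against 8.04, 8.38 and 8.26 in GFP negative samples. GFP negative samples were more spread than GFP positive ones, but did not reach them, and the gene was 1.60-fold higher (difference 0.67 ± 0.10 SE, limma adjusted p = 0.00144). Hnrnpul1, an RNA-binding protein also known from DNA repair, had 8.73, 8.82 and 8.96 in GFP positive samples, against 8.35, 8.32 and 8.28 in GFP negative samples. It was 1.43-fold higher (difference 0.52 ± 0.09 SE, limma adjusted p = 0.00203), again without overlap.

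Hnrnph1 and Hnrnph3, relatives that bind runs of G, were both higher. Hnrnph1 averaged 9.77 ± 0.03 in GFP positive cells and 9.41 ± 0.08 in GFP negative cells (SD, n = 3 each), a difference of 0.36 (limma adjusted p = 0.00762). Hnrnph3 averaged 7.05 ± 0.14 in GFP positive cells and 6.66 ± 0.08 in GFP negative cells, a difference of 0.39 (limma adjusted p = 0.0131). Hnrnph2, of the same family, had a difference of -0.20 with overlapping samples and did not pass (95% interval -0.49 to 0.10). Hnrnpm was the single Hnrnp gene called lower, with 8.54 ± 0.08 in GFP positive cells and 8.77 ± 0.02 in GFP negative cells (difference -0.23, limma adjusted p = 0.0474), and its call was lost with the replicate block (0.054) and without any single array (differences -0.26 to -0.18). Hnrnpab missed the threshold (difference -0.22, limma adjusted p = 0.0655). For the core hnRNP proteins the estimates of the brightest probe sets were small, and none passed. Differences were -0.18 for Hnrnpa1, 0.09 for Hnrnpa2b1, -0.14 for Hnrnpc, -0.07 for Hnrnpk and -0.12 for Hnrnpu. Other probe sets of Hnrnpa1 (-0.31) and Hnrnpc (-0.41) were called lower in the test over probe sets, and those of Hnrnpa2b1 and Hnrnpu are given below. The other 7 of the 19 had differences between -0.19 (Hnrnpf) and 0.17 (Hnrnpul2). The call of Hnrnph1 was lost with the mean of its probe sets.

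Genes of many splicing factors are read by several probe sets, which can match different transcript ends. The 62 genes had 174 probe sets, 19 genes having a single one. Of the 98 other probe sets above the filter, 74 had the sign of the brightest. For the 21 called genes, 26 of 31 others had the same sign, 12 of them passed the same way and 0 the opposite way (limma, adjusted over 27022 probe sets, of which 32.5% were called). All 3 other probe sets of Prpf19 above the filter were called lower (-0.62, -0.60 and -0.74), as were both others of Snrpa1 (-0.72 and -0.39), and the other one of Hnrnpll was called higher (0.95). Among genes whose brightest probe set did not pass, 15 other probe sets did. In Hnrnpab, 3 other probe sets were called lower, at -0.48, -0.61 and -0.54, and in Srsf6 another 2 were, at -0.41 and -0.43. In Hnrnpu, 2 other probe sets passed in opposite directions, at -0.44 and 0.55. In Srsf11, a dim probe set was higher by 0.90 where the brightest had -0.11, and in Hnrnpa2b1 another was higher by 0.59 where the brightest had 0.09. Single others were called lower in Hnrnpa1 (-0.31), Hnrnpc (-0.41) and Hnrnpf (-0.33), and higher in Hnrnpdl (0.47), Hnrnpr (0.58) and Hnrnpul2 (0.41). The sources used here do not say which transcripts these probe sets match. Of the 21 called genes, the brightest probe sets of 5, those of Srsf1, Sf3b6, Snrpe, Hnrnpm and U2af1l4, did not pass in the test over probe sets. Of the 62 brightest probe sets, 7 carry the suffix _s_at and 5 the suffix _x_at, which mark probes that can match other transcripts.

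**Figure D3:**
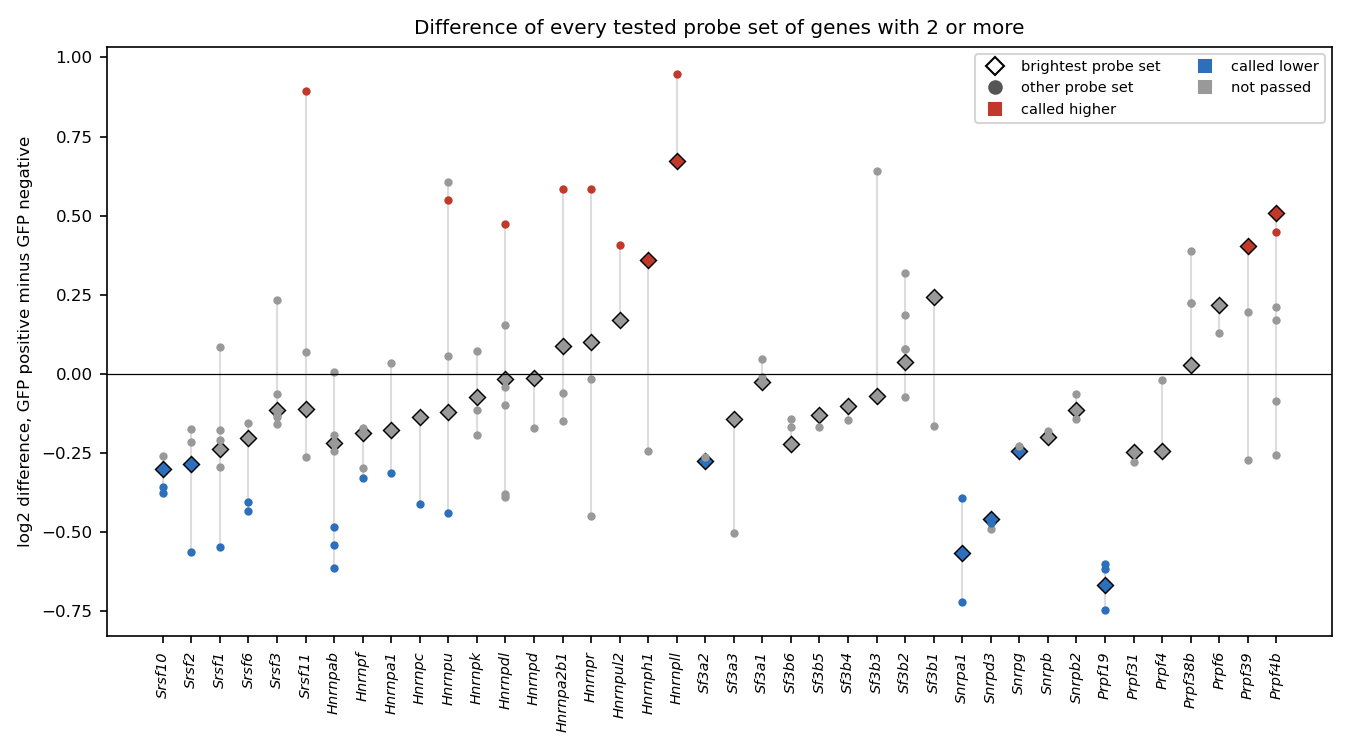
Log2 difference between GFP positive and GFP negative cells (vertical axis) for each tested probe set of splicing factor genes with 2 or more. Diamonds are the brightest probe set of a gene and circles its others, red for called higher, blue for called lower and grey for not passed (limma, adjusted over probe sets). The probe sets of Prpf19 and Snrpa1 lie together below 0, whereas those of Hnrnpu and Srsf11 lie on both sides of it.

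The rest of the splicing machinery was described through 8 lists, which hold 125 tested genes outside the prefixes. Of these, 20 were higher, 20 were lower and 85 did not pass, a share of 32% called, below the 42.1% of all genes, and the median difference was 0.05. Among the lists, all chosen with earlier results known, a pair that bears on the Sm and SR proteins had the highest shares called.

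Of the 9 genes for the assembly of the Sm core, 7 were lower (77.8%, against 17.5% of all genes), none was higher and 2 did not pass, with a median of -0.43. Prmt5, the methyltransferase that modifies Sm proteins before they are loaded on small nuclear RNA, had log2 signals of 6.75, 7.10 and 6.55 in GFP positive samples, against 8.08, 8.18 and 8.18 in GFP negative samples. It was 2.55-fold lower (difference -1.35 ± 0.14 SE, limma adjusted p = 0.000236), more than any of the Snrp genes. Wdr77, its partner in the methylosome, had 6.98, 7.12 and 7.01 in GFP positive samples, against 7.87, 7.77 and 7.91 in GFP negative samples, and was 1.76-fold lower (limma adjusted p = 0.000238). Gemin5, which recognises the small nuclear RNA, was lower by a difference of -0.85, and Clns1a, the chaperone of Sm proteins, by -0.43. Strap (-0.43), Coil (-0.40) and Gemin8 (-0.43) were also called lower, while Gemin7 (-0.14) and Gemin2 (0.14) did not pass. Gemin8 lost its call without any single array other than GFP positive 2, and without both GFP positive 3 and GFP negative 1.

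Of the 6 kinases of SR proteins, 5 were higher (83.3%, against 24.6% of all genes), none was lower and 1 did not pass, with a median of 0.41. Clk1 had 8.40, 8.46 and 8.52 in GFP positive samples, against 7.76, 7.89 and 7.79 in GFP negative samples, and was 1.57-fold higher (difference 0.65 ± 0.08 SE, limma adjusted p = 0.000498). Clk4 had 5.91, 6.17 and 6.18 in GFP positive samples, against 5.60, 5.63 and 5.61 in GFP negative samples (difference 0.47, limma adjusted p = 0.00517). Srpk2 (difference 0.69), Clk2 (0.35) and Clk3 (0.30) were also called higher, and Srpk1 (-0.10) did not pass. Clk2 was not called without any single array other than GFP positive 1, nor Clk3 without GFP positive 2, GFP positive 3, GFP negative 1 or GFP negative 2. Without both GFP positive 3 and GFP negative 1, 2 of the 6 kinases were called.

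The other lists were mixed, and their counts stand beside shares of 24.6% higher and 17.5% lower over all genes. In the list of the PRP19 complex and catalytic steps, 3 of 24 genes were higher and 4 lower, among them Ccdc12 (difference 0.51, limma adjusted p = 0.00179) and Isy1 (-0.48, limma adjusted p = 0.00165). Bcas2, a partner of Prpf19 in its complex, was also lower (-0.52). The regulators that bind RNA outside these families had 8 of 35 higher and 3 lower, led by Mbnl2, a muscleblind protein. Mbnl2 had 6.73, 6.79 and 6.81 in GFP positive samples, against 5.63, 5.72 and 5.66 in GFP negative samples, and was 2.15-fold higher (limma adjusted p = 5.96e-05). Rbm5 was higher as well (difference 0.60, limma adjusted p = 0.000734). The Lsm genes, most of them of the ring that binds U6, had 1 of 7 higher (Lsm8, 0.27) and 1 lower (Lsm7, -0.58). Other proteins of the U1, U2 and minor particles had 2 of 21 higher, among them Sf1 (0.25), and 2 lower. Snrnp40, a U5 protein held in that list, was lower (-0.70, limma adjusted p = 0.0153), with GFP positive samples as far apart as 8.90, 8.32 and 8.14, against 9.13, 9.24 and 9.09 in GFP negative samples. Genes of the tri-snRNP outside the Prpf prefix had 1 of 11 higher (Cd2bp2, 0.53) and 2 lower, among them Eftud2 (-0.33), a GTPase of U5. Exon junction and cap-binding genes had 0 of 12 higher and 1 lower (Rbm8a, -0.34), with Alyref at 0.20 not passing. Taken as the mean of their probe sets, Ccdc12 (0.086), Isy1 (-0.17), Cd2bp2 (0.20), Sf1 (0.0095) and Lsm8 (0.12) were not called, and Mbnl2 was called with a smaller difference (0.57, against 1.11 for its brightest probe set). Sf1 was not called without any single array but GFP positive 1 (differences 0.20 to 0.25), and neither was Lsm8 (0.23 to 0.29). Snrnp40 was not called without GFP positive 2 (-0.63), nor Eftud2 without GFP negative 2 or GFP negative 3 (both -0.30). Without both GFP positive 3 and GFP negative 1, the calls of Rbm8a, Snrnp40, Eftud2, Sf1 and Lsm8 were lost.

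**Figure D4:**
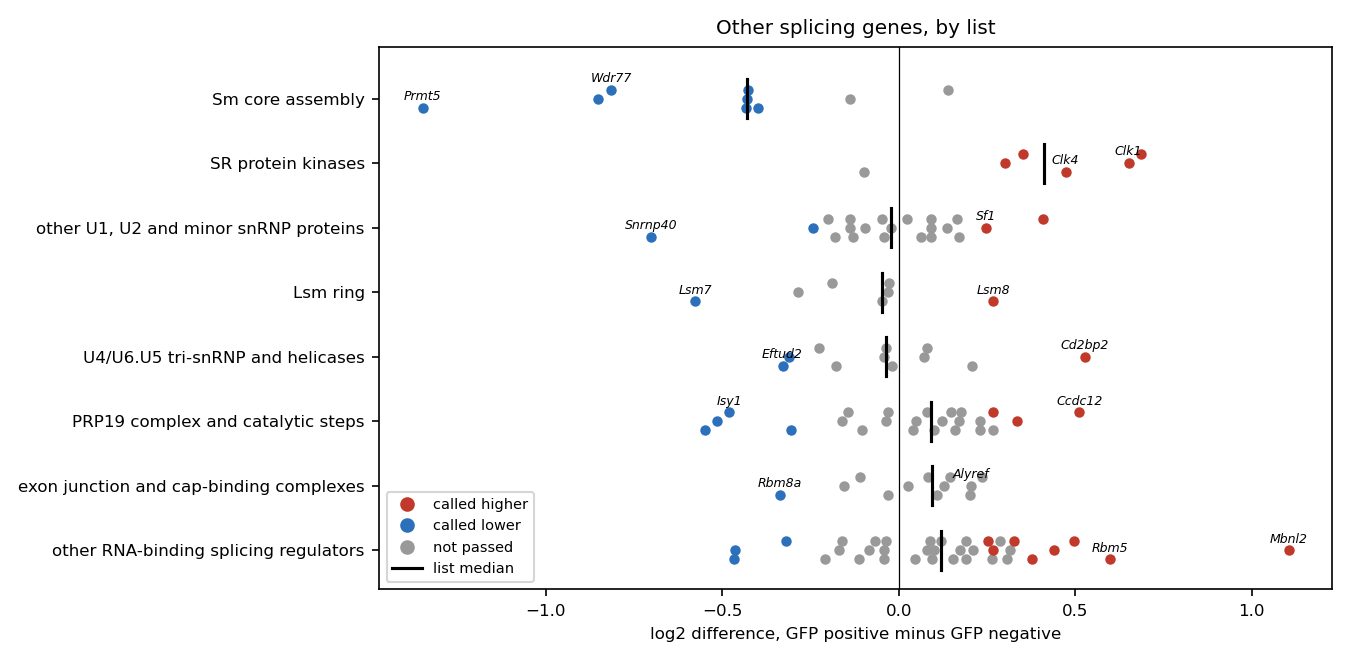
Log2 difference between GFP positive and GFP negative cells (horizontal axis) for 125 splicing genes outside the prefixes, in 8 lists. Red points were called higher, blue points lower and grey points did not pass, and black bars are list medians, which lie at -0.43 for Sm core assembly and at 0.41 for SR protein kinases.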

How the data were processed

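Per the labels' protocols, biotin-labelled total RNA of each of the 6 sorted samples was run on 1 Affymetrix GeneChip mouse genome array. The authors deposited log2 signal values for 45101 probe sets, 64 of them controls. The log2 unit follows from the range of the values. Affymetrix Expression Console was used, per the submitters' processing notes, which give no version. How probes were summarised and arrays normalized is not given in the sources used. Precision is limited by the number of arrays.

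The deposited values were used as they are. The 34945 probe sets with 1 symbol were named and the 932 with several were left out. Genes whose brightest probe set averaged below the 40th percentile of log2 signal (1.27) were not tested, which left 13194 of 18193. Groups were compared by a two-sided test in limma (version 3.58.1, R 4.3.3) that fits lmFit and eBayes with no term but group. P-values were adjusted after Benjamini and Hochberg over all genes tested, at a threshold of 0.05. The same model was fitted over probe sets. The procedure was tested on simulated data. Differences are GFP positive minus GFP negative.

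The members, the lists and the tests were chosen with earlier results of these data known. Named genes are up to 6 Srsf, 6 Hnrnp and 4 of each other prefix by lowest unadjusted p, the largest change of each prefix, and up to 2 genes of each other splicing list. Other genes given by value were chosen after their values were seen. The groups share replicate numbers in the labels, and same-numbered samples deviated together from their group means (correlations across genes of 0.474, 0.348 and 0.251, against -0.332 to 0.0416 for other pairs). Deviations cancel within each group, so high values for same-numbered pairs push those of other pairs down. This contrast is thus partly fixed by the calculation. The numbers were taken to pair the samples in an alternative fit, with the replicate number as a block. P-values, SEs and intervals are from the fit without pairing unless the block is named. The block is given where it changes a call of the prefix genes. Outside them, Phf5a and Slu7 lost their calls with it and Csf1r gained one. Alternatives were another scaling between arrays, 32 added in linear units, other filters, the mean of probe sets, a trended robust prior, the block, and the removal of arrays.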

Additional observations from a re-analysis of the deposited data

How the results depend on the processing

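The median of all genes tested was -0.02 as reported, -0.05 after quantile normalization and -0.14 after centring. Centring here subtracted, array by array, the median signal of only those probe sets that lay above the filter. Higher genes made up 58.4%, 49.0% and 39.6% of all calls, in the same order. All tested Snrp estimates were negative under each of the 15 alternatives. After centring, 29 splicing factors were lower (median -0.23), with 6 lower Srsf (median -0.23), 6 Hnrnp (-0.13), 2 Sf3a (-0.26), 2 Sf3b (-0.20), 8 Snrp (-0.36) and 4 Prpf (-0.00279, so the Prpf median changed sign), while 0 U2af were higher and 1 lower (-0.25). The other splicing genes then had 10 higher and 33 lower (median -0.067), Sm core assembly a median of -0.54 and SR protein kinases 3 higher (0.30). Quantile normalization gave a Sf3a median of -0.19, 1 higher Sf3b, 1 higher and 3 lower Prpf, 0 higher U2af and a kinase median of 0.30. Adding 32 gave 20 lower splicing factors, 5 lower Hnrnp, 1 higher Sf3b, 1 lower U2af and a kinase median of 0.28. The filter at the 60th percentile gave 2 lower Hnrnp and 1 higher Sf3b, and no filter gave 0 lower Hnrnp, 0 lower Sf3b and 0 higher U2af. The mean of probe sets gave 4 lower Hnrnp, a Sf3a median of -0.27, 0 lower Sf3b (median -0.00985), and 1 higher and 2 lower Prpf. The trended prior gave 2 higher Srsf, 4 lower Hnrnp, 1 higher Sf3b, 2 lower Prpf and 1 lower U2af. After centring, with 32 added and with the trended prior, a larger share was called of splicing factors than of all genes. The shares of all genes called were 47.9%, 39.4% and 43.5% in these fits. With the replicate block, which pairs the samples by number, 9 splicing factors were higher and 10 lower, with 0 lower Hnrnp, 0 lower Sf3b and 2 lower Prpf, and 44.4% of all genes were called. Without both GFP positive 3 and GFP negative 1, 3325 of all genes were called, with 3 higher and 4 lower splicing factors, 0 higher and 0 lower Srsf, 2 higher and 0 lower Hnrnp, 0 lower Sf3a, 0 lower Sf3b, 3 lower Snrp, 1 higher Prpf, 0 higher U2af, 9 higher other splicing genes and 2 higher kinases. Without each array in turn, 4315 to 5604 of all genes were called, with 6 to 10 higher and 4 to 10 lower splicing factors, 1 to 2 higher and 0 to 3 lower Srsf, 0 lower Hnrnp (median -0.041 to 0.015), 0 to 1 lower Sf3a (-0.18 to -0.077), 0 to 1 higher and 0 lower Sf3b, 3 to 5 lower Snrp, 1 to 3 higher and 1 to 2 lower Prpf, 0 to 1 higher U2af, 10 to 25 higher other splicing genes, 3 to 5 higher kinases and 6 to 7 lower Sm core assembly genes. None of the 21 called splicing factors changed sign in any alternative, while 15 that did not pass did in 1 or more. With the mean of probe sets, the highest values were 0.29 for Sf3b3, 0.15 for Srsf11 and 0.13 for Hnrnpu, all with negative estimates as reported, and centring turned Hnrnpa2b1 to -0.028 and Prpf8 to -0.0049. The difference of Sf3a1 changed sign with the mean of probe sets (0.0036), without GFP positive 1 (0.014) and without GFP negative 3 (0.00031), with a lowest value of -0.073 without GFP positive 2. The 46 named genes gave 690 values under alternatives, of which 567 kept direction and side of the threshold, 98 lost the call and 22 gained it. The alternatives for Sm core assembly and for the kinases were chosen after seeing the data, and the removal of 2 arrays together with earlier results of these data known. The cause of these changes was not tested, except that fits with fewer arrays have fewer residual degrees of freedom.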

Other observations

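The 3′ minus 5′ log2 signal of the Gapdh control was 0.02 to 0.12 in GFP positive samples and -0.02 to 0.08 in GFP negative samples (exact permutation p = 0.5). That of the Actb control was 0.48 to 0.53 in GFP positive samples and 0.43 to 0.51 in GFP negative samples (exact permutation p = 0.2). The median signal of each array was lower in GFP positive samples, 1.62 to 1.66, against 1.69 to 1.72 in GFP negative samples (exact permutation test, two-sided, p = 0.1, the smallest that 3 samples against 3 can give). The median of the genes tested was higher in GFP positive samples, 4.72 to 4.80, against 4.54 to 4.62 in GFP negative samples.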
